A study of Mus musculus with 8 samples.

Results

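The genes described here carry long-chain fatty acids into the heart muscle cell and break them down by beta-oxidation. They were chosen by name: a list of 33 genes was read in an array study of the mouse left ventricle through pregnancy, taking probe sets annotated with a single gene symbol and, where a gene had several, the one with the highest mean. Of the 33 genes, 31 were measured, among 22180 genes with such a probe set, and all 31 were among the 13872 genes tested. Acsl1, a long-chain acyl-CoA synthetase, had no annotated probe set here. Cpt1b, the muscle form of the enzyme that commits fatty acids to the mitochondrion, had only a probe set annotated with several genes, which was not used. The 31 genes comprised 5 of uptake and activation, 21 of mitochondrial steps, 4 of peroxisomal steps and 1 regulator, Ppara.

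The arrays held left ventricle from female C57BL/6 mice that were 3 to 4 months old and received no treatment. The groups were non-pregnant mice in diestrus, a phase of the estrous cycle (replicates 2 and 3), mice at day 12 of pregnancy (replicates 2 and 3), mice at day 19 of pregnancy (replicates 1 and 2) and mice at day 1.5 post-partum (replicates 2 and 4), with 2 arrays a group. The protocol text lets the late pregnant group include the day before. Each RNA came from 1 piece of a ventricle, and the labels name separate samples but not their animals, so a p-value reflects the variation among these samples, which may be technical.

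Fatty acids are the main fuel of the adult heart. They are released from circulating triglyceride at the capillary wall, cross the muscle cell membrane, are joined to coenzyme A, and enter the mitochondrion as carnitine esters, where each turn of beta-oxidation removes an acetyl unit and hands electrons to the respiratory chain. Peroxisomes shorten very long and branched chains by a parallel set of enzymes. The nuclear receptor PPAR-alpha, the product of Ppara, switches on many of these genes when bound by fatty acids.

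Values are log2 expression values as deposited, differences are on the same log2 scale, and a level is compared between arrays only, never between genes. Array medians lay between 5.14 and 5.28. The deposited values had been through RMA, which equalises the arrays, so these medians do not show how depth of signal differed. The tissue label held for the muscle: all 10 cardiomyocyte markers were among the genes tested, and Myh6 lay between 12.34 and 12.60 on the 8 arrays. Adipoq, Lep and Ucp1, which mark fat cells that also take up and oxidise fatty acids, lay at or below 5.28 on all arrays, near the median of all values, 5.19. Of 8 fat cell markers 4 were tested, and these were not all low. Cidea lay between 7.43 and 7.92, Retn between 5.32 and 6.97, Cidec between 5.12 and 6.34 and Plin1 between 4.87 and 5.74. The mean difference of these 4 from the diestrus mean ran from -0.15 to 0.79 over the arrays, highest on day 19 replicate 1. Because this is whole tissue, fewer cells of a type and less RNA per cell cannot be told apart.

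Some arrays stood apart. Day 19 replicate 2 correlated with the other arrays at 0.967 to 0.975 over genes, against 0.983 to 0.993 among the rest. On it, 10 macrophage markers averaged 1.25 and 8 interferon response genes 2.36 above their diestrus mean, 11 capillary endothelial markers averaged -0.46 and the 10 cardiomyocyte markers -0.19. The atrial marker Myl7 was at 8.24 on diestrus replicate 3, 10.04 on day 12 replicate 3 and 11.76 on day 19 replicate 1, against 4.56 to 5.12 on the other arrays. Results that rest on these arrays are also given without them, and the part of these markers in the results was not tested.

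No gene of the whole array passed an adjusted p of 0.05 in limma in any of the 6 comparisons made between groups. The share of genes called was thus 0% throughout, with 0 of the 31 fatty acid genes, and directions below describe means and arrays. Leaving out day 19 replicate 1, or blocking on the replicate number, did bring some of the 31 under 0.05 in comparisons with day 19, and the block did so for Slc27a1 post-partum. A second count states for how many genes both arrays of one group lay above, or both below, both arrays of the other. With 2 arrays against 2, an exact permutation test of a single gene cannot give a two-sided p below 0.333.

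At day 12 of pregnancy, all 31 genes had a higher mean than in diestrus. With the mean of all probe sets of a gene, 30 did. The median difference was 0.15, while the median over all genes tested was 0.02 and 55.1% of them were higher. For 22 of the 31 genes, 71.0%, both day 12 arrays lay above both diestrus arrays, against 21.7% of all genes tested. For 0 of the 31 both day 12 arrays lay below, against 15.6% of all genes. Acad10, with a diestrus mean of 5.17, passed the filter on low values only through its day 12 and post-partum means. Its day 12 and diestrus arrays overlapped, so it was not among the 22. A stricter filter left 30 genes, without Acad10, and all 30 were higher at day 12 by mean. The median shift was close in size to the error of a single gene, with a typical SE of 0.17. Of the 31, 1 gene, Eci2, had an unadjusted limma p under 0.05, against 2.31% of all genes. Over the 31 genes the 2 arrays of a group differed by a median of 0.10 at day 12 and 0.06 in diestrus. Without the 3 arrays high in atrial markers, a choice made after seeing the data, diestrus and day 12 each kept only replicate 2. Between these single arrays 30 of the 31 were higher at day 12 and the median difference was 0.19. At day 12 all 8 fibroblast markers were lower and all 8 interferon response genes higher than in diestrus by mean, with medians of -0.32 and 0.43, and the 2 red cell genes tested were higher with a median of 0.87. The 4 fat cell markers tested were also all higher, with a median of 0.22. Their part in the result was not tested.

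**Figure D1:**
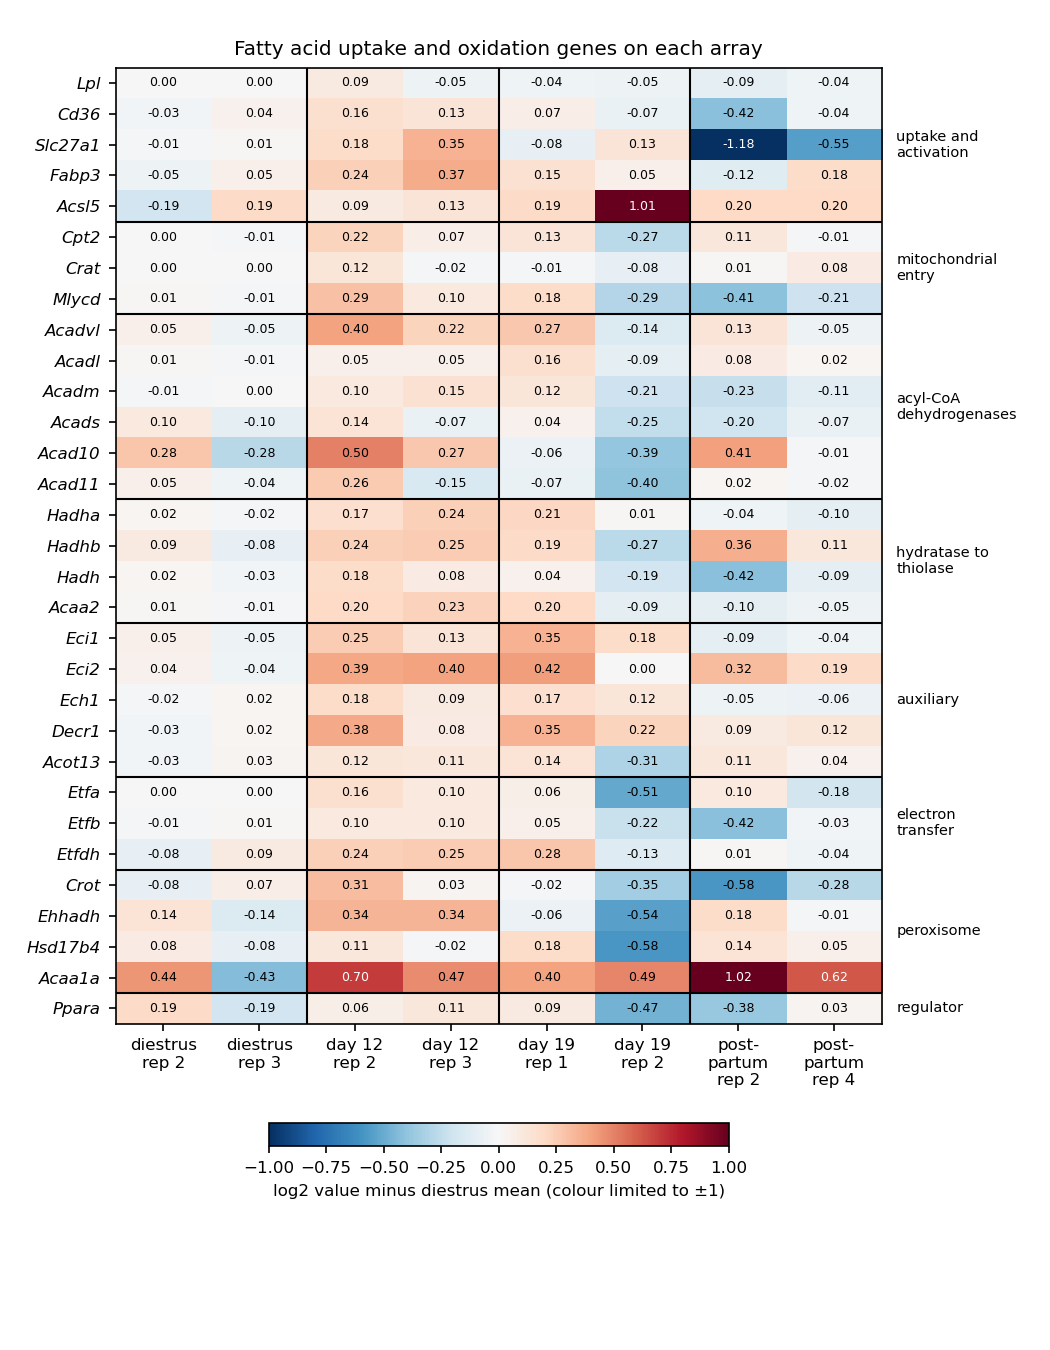
Each cell gives the log2 value of 1 gene on 1 array minus the gene's diestrus mean, with genes grouped by step down the page and the 8 arrays from diestrus to post-partum across it. Red marks values above the diestrus mean and blue values below it. The 2 day 12 columns are mostly red, with 31 and 26 of 31 genes above 0, while day 19 replicate 2 has 8 of 31 above 0.

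The day 12 group held the highest of the 4 group means for 24 of the 31 genes, 77.4%, against 27.5% of all genes tested. Diestrus held the highest mean for 0 of the 31 and day 12 the lowest for 0. The lowest mean was post-partum for 14 genes, 45.2% against 28.6% of all genes. It was at day 19 for 10, 32.3% against 32.9%, and in diestrus for 7, 22.6% against 21.0%.

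At day 19 the genes showed no common direction against diestrus. By mean 13 of 31 were higher and 18 lower, with a median difference of -0.04 beside -0.03 over all genes, of which 44.5% were higher. Both day 19 arrays lay above both diestrus arrays for 5 genes, Fabp3, Acsl5, Eci1, Ech1 and Decr1, or 16.1% against 16.4% of all genes. Both lay below for 3 genes, Lpl, Crat and Acad11, or 9.68% against 20.4%. Unadjusted p was under 0.05 for 0 of the 31, against 7.29% of all genes. The mean hid a split between the 2 arrays: 28 of 31 genes were lower on replicate 2 than on replicate 1, 90.3% against 61.7% of all genes, with a median of -0.29 against -0.10. Without replicate 2, 24 of the 31 were higher at day 19 than in diestrus, with a median of 0.14. Without replicate 1, 8 were higher, with a median of -0.14.

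Post-partum the group was again mixed against diestrus, with 14 genes higher and 17 lower and a median of -0.02, beside -0.004 over all genes, of which 49.4% were higher. Both post-partum arrays lay above both diestrus arrays for 8 genes, 25.8% against 21.1% of all genes. Both lay below for 11 genes, 35.5% against 21.7%. Slc27a1, Crot and Acaa1a had an unadjusted limma p under 0.05, 3 of 31 against 6.62% of all genes, and the first 2 were lower and Acaa1a higher.

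The 3 comparisons with diestrus share the diestrus arrays, so the stages were also set against each other. Those with day 12 reuse its 2 arrays, which already held the highest mean for 24 of the 31 genes. They are thus not independent of the day 12 result. Day 19 had the lower mean for 27 of 31 genes against day 12, with a median of -0.19 beside -0.04 over all genes, of which 42.8% were higher. The fall was not particular to these genes. In the same comparison 23 of 24 respiratory chain genes and 12 of 12 citric acid cycle genes were lower, each list with a median of -0.19. All 10 cardiomyocyte markers were lower too, with a median of -0.11. Among the 31, both day 19 arrays lay below both day 12 arrays for 10, 32.3% against 23.2% of all genes. Both lay above for 1, Acsl5, 3.23% against 16.3%. Unadjusted p was under 0.05 for 2 genes, Ehhadh and Acad10, both lower at day 19, against 6.47% of all genes. Acad10 passed the filter on low values only through its day 12 and post-partum means, and a stricter filter left 1 of 30. Without day 19 replicate 2, 12 of 31 were higher at day 19 and the median was -0.01. Without it 19 of the 27 were still lower, among them Ehhadh and Acad10 by mean differences of -0.40 and -0.44.

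Post-partum against day 12, a comparison added after the data were seen, 27 of 31 genes were lower, with a median of -0.19 beside -0.03 over all genes. Both post-partum arrays lay below both day 12 arrays for 19 genes, 61.3% against 26.0% of all genes, and above for 1, Acsl5, 3.23% against 20.5%. Slc27a1, Cd36, Mlycd, Hadh and Crot had an unadjusted limma p under 0.05, all lower post-partum, 5 of 31 against 8.12% of all genes. Leaving out 1 array in turn gave -1.44 to -0.81 for Slc27a1, -0.57 to -0.18 for Cd36 and -0.60 to -0.40 for Mlycd. It gave -0.55 to -0.22 for Hadh and -0.75 to -0.45 for Crot. Post-partum replicate 2 was the lowest of the 8 arrays for 11 of the 31 genes, 35.5% against 20.9% of all genes, and replicate 4 for 2, 6.45% against 6.15%. Leaving out any 1 array kept between 3 and 7 of the 31 higher post-partum. Between the same groups, 6 of 8 fibroblast markers were higher post-partum, with a median of 0.25, 7 of 8 interferon response genes were lower, with a median of -0.22, and both red cell genes were lower, with a median of -0.485. Their part in the result was not tested. Post-partum against day 19 showed no common direction, with 13 higher and 18 lower. Without day 19 replicate 2, 7 were higher and the median was -0.18, and without day 19 replicate 1, 18 were higher and the median was 0.11. Both post-partum arrays lay above both day 19 arrays for 5 genes, 16.1% against 19.0% of all genes, and below for 5, 16.1% against 14.3%. Unadjusted p was under 0.05 for 2, Slc27a1 and Eci1, both lower post-partum, against 8.25% of all genes.

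**Figure D2:**
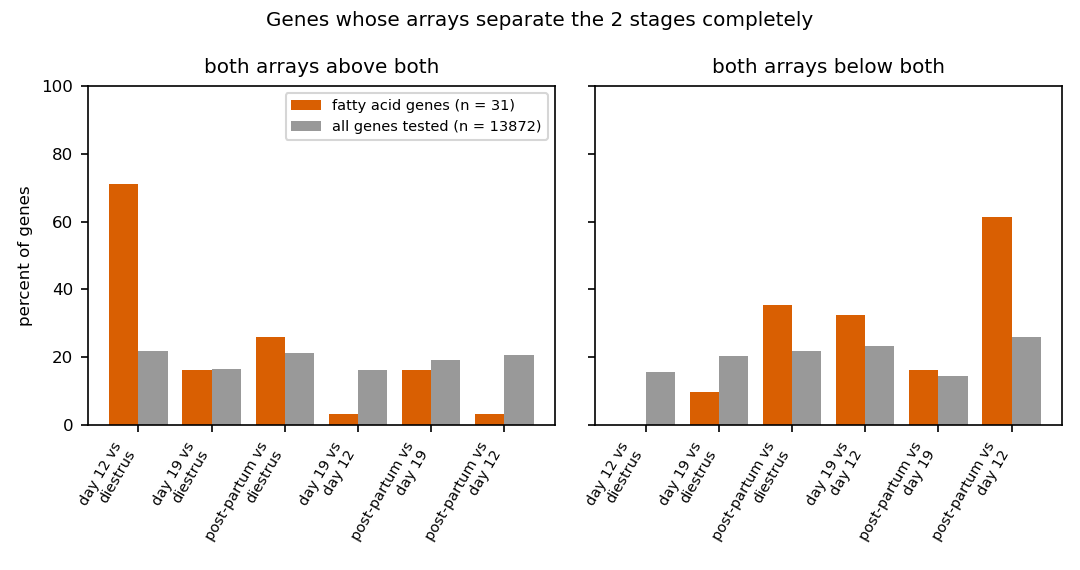
Bars give the percent of the 31 fatty acid genes, beside the percent of all 13872 genes tested, whose 2 arrays of the first-named stage lay above (left) or below (right) both arrays of the other stage. The tallest bars are 71.0% above for day 12 against diestrus and 61.3% below for post-partum against day 12, beside 21.7% and 26.0% of all genes. Both of these comparisons use the same 2 day 12 arrays.

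Read by step, the 3 parts of the pathway differed in their averages at day 19 and post-partum. The mitochondrial genes averaged 0.22 and 0.13 above their diestrus mean on the day 12 arrays, 0.15 and -0.16 on day 19 replicates 1 and 2, and -0.01 and -0.03 on the post-partum arrays. The uptake genes averaged 0.15 and 0.18, then 0.05 and 0.21, then -0.32 and -0.05 on the same arrays in the same order. The peroxisomal genes averaged 0.37 and 0.20, then 0.12 and -0.25, then 0.19 and 0.10. The uptake average was moved by single genes: it was 0.01 on day 19 replicate 2 without Acsl5, and -0.11 and 0.07 post-partum without Slc27a1. Acaa1a carried the peroxisomal average post-partum, since the other 3 genes averaged -0.08 and -0.08 there.

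Other mitochondrial energy genes had smaller averages at day 12. On the day 12 arrays, 24 respiratory chain genes averaged 0.06 and 0.00 above their diestrus mean, and 12 citric acid cycle genes 0.09 and 0.03. Both day 12 arrays lay above both diestrus arrays for 12 of the 24, 50.0%, and 4 of the 12, 33.3%. The shares were 71.0% of the 31 fatty acid genes and 21.7% of all genes. Both lay below for 6 of the 24 and 0 of the 12. On day 19 replicate 2 both lists were lower than the mitochondrial fatty acid genes, each at -0.34, with 0 of the 24 and 0 of the 12 above their diestrus mean. These lists are given as a description, and no test set them against the fatty acid genes.

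**Figure D3:**
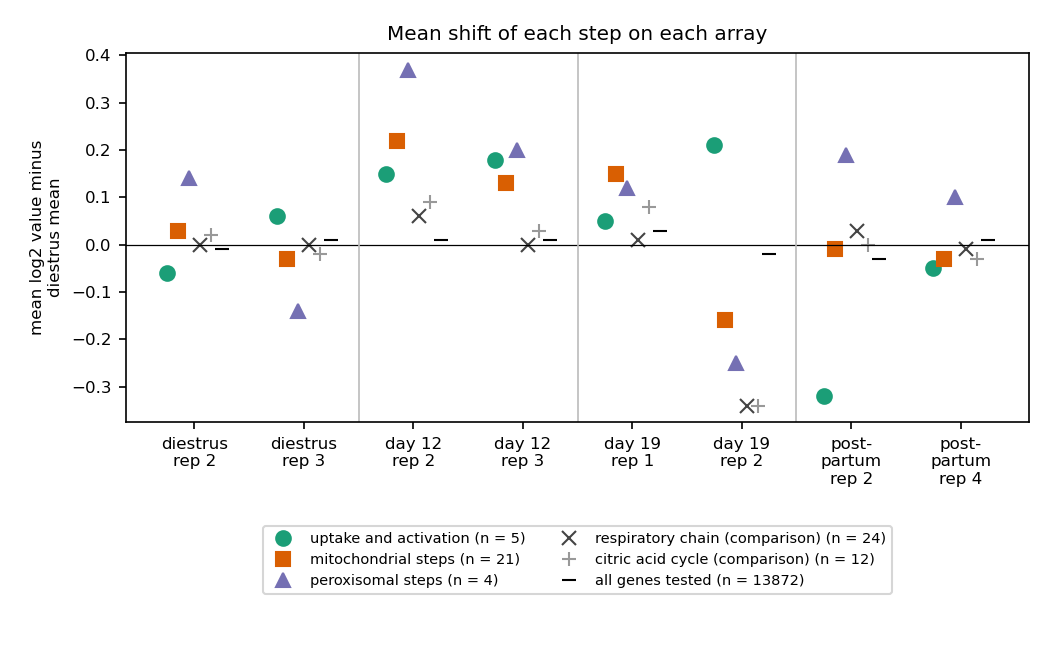
Points give the mean, on each of the 8 arrays, of log2 values minus the diestrus mean for the uptake, mitochondrial and peroxisomal genes, with 2 other mitochondrial gene lists and all genes tested for comparison. At day 12 the 3 fatty acid steps lie at 0.13 or above on both arrays, and on day 19 replicate 2 every list but uptake and all genes lies at -0.16 or below.

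Uptake begins with lipoprotein lipase, encoded by Lpl, which frees fatty acids from triglyceride at the capillary surface. On the probe set used, Lpl varied least of the uptake genes, at 12.64 and 12.64 in diestrus, 12.73 and 12.59 at day 12, 12.60 and 12.59 at day 19 and 12.55 and 12.60 post-partum. The largest of its differences from diestrus was -0.07 ± 0.12 (SE), post-partum. A second Lpl probe set did not show this order. It read 7.74 and 8.06 in diestrus, 7.71 and 7.38 at day 12, 7.39 and 7.64 at day 19 and 8.36 and 8.16 post-partum. On it both arrays of each pregnant group lay below both diestrus arrays and both post-partum arrays above, so Lpl is among the genes higher at day 12 on 1 of its 2 probe sets. Which of the probe sets reports the transcript better was not tested.

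Cd36 encodes the fatty acid translocase of the cell membrane. It read 12.30 and 12.37 in diestrus, 12.49 and 12.46 at day 12, 12.40 and 12.26 at day 19 and 11.91 and 12.29 post-partum. The day 12 arrays were the highest pair and the post-partum mean was the lowest, with post-partum replicate 2 below all other arrays. The post-partum minus day 12 difference was -0.38 ± 0.16 (limma adjusted p = 0.615).

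Slc27a1 encodes fatty acid transport protein, which couples entry of the fatty acid to its activation, and it showed the largest difference of all 31 genes. It read 9.29 and 9.31 in diestrus, 9.48 and 9.65 at day 12, 9.22 and 9.43 at day 19 and 8.12 and 8.75 post-partum. Both post-partum arrays lay below all 6 others. The post-partum minus diestrus difference was -0.87 ± 0.21, a fold of 0.548 (limma adjusted p = 0.722). Against day 19 it was -0.89 ± 0.21 (limma adjusted p = 0.589) and against day 12 -1.13 ± 0.21, a fold of 0.457 (limma adjusted p = 0.416). The 2 post-partum arrays differed by 0.63, and leaving out 1 array in turn gave -1.18 to -0.55 against diestrus.

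Fabp3 encodes the heart fatty acid binding protein, which carries fatty acids through the cytosol. It read 8.30 and 8.40 in diestrus, 8.59 and 8.72 at day 12, 8.50 and 8.40 at day 19 and 8.23 and 8.53 post-partum. Its day 12 minus diestrus difference, 0.30 ± 0.15, was a fold of 1.23 (limma adjusted p = 1.0). The second Fabp3 probe set lay near the filter on low values, 5.19, and below it in diestrus. It was also higher at day 12, at 5.30 and 5.18, against 4.94 and 4.98 in diestrus, and read 5.42 and 5.15 at day 19. It was higher post-partum too, at 5.38 and 5.57, where the first overlapped diestrus.

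Acsl5 encodes an acyl-CoA synthetase, which activates fatty acids with coenzyme A. It read 7.16 and 7.54 in diestrus, 7.44 and 7.48 at day 12, 7.54 and 8.36 at day 19 and 7.55 and 7.55 post-partum. A single array, day 19 replicate 2, stood 0.82 above its partner, in the direction opposite to 28 of the other genes. The day 19 minus diestrus difference was 0.60 ± 0.26 (limma adjusted p = 0.657). It was 0.19 without that array. That array was also the one with the highest macrophage and interferon response genes, as given above.

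Entry to the mitochondrion was covered by 3 measured genes. Cpt2, which releases the acyl group from carnitine at the inner membrane, read 11.17 and 11.16 in diestrus, 11.39 and 11.24 at day 12, 11.30 and 10.90 at day 19 and 11.28 and 11.16 post-partum. The 2 day 19 arrays differed by more than any pair of its group means. Crat, the carnitine acetyltransferase that buffers acetyl-CoA, kept within 11.37 to 11.57 on all arrays. A second Crat probe set read 5.88 and 5.92 in diestrus, 5.90 and 5.87 at day 12, 5.76 and 5.99 at day 19 and 5.90 and 6.13 post-partum. On both probe sets the day 12 and diestrus arrays overlapped, and the second was not higher at day 12 by mean. Mlycd encodes malonyl-CoA decarboxylase, which removes the malonyl-CoA that blocks carnitine palmitoyltransferase. It read 8.39 and 8.37 in diestrus, 8.67 and 8.48 at day 12, 8.56 and 8.09 at day 19 and 7.97 and 8.17 post-partum. Both post-partum arrays were below both diestrus and both day 12 arrays, with differences of -0.31 ± 0.18 and -0.50 ± 0.18 (limma adjusted p = 0.738 and 0.615).

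The acyl-CoA dehydrogenases open each turn of beta-oxidation, and each serves a range of chain lengths. Acadvl, for very long chains, read 10.42 and 10.32 in diestrus, 10.77 and 10.59 at day 12, 10.64 and 10.23 at day 19 and 10.50 and 10.32 post-partum. Its day 12 mean was the highest, with a difference of 0.31 ± 0.17 from diestrus, a fold of 1.24 (limma adjusted p = 1.0). Acadm, for medium chains, read 12.50 and 12.51 in diestrus, 12.61 and 12.66 at day 12, 12.63 and 12.30 at day 19 and 12.28 and 12.40 post-partum. Both its post-partum arrays lay below both diestrus arrays, with a difference of -0.16 ± 0.15.

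Acadl, for long chains, and Acads, for short chains, varied little. Acadl lay within 11.44 to 11.69 and Acads within 10.02 to 10.41 on all arrays, each lowest on day 19 replicate 2. Acad10 and Acad11 are less studied relatives of this family. Acad10 read 5.45 and 4.89 in diestrus, 5.67 and 5.44 at day 12, 5.11 and 4.78 at day 19 and 5.58 and 5.16 post-partum. It lay near the median of all values and passed the filter on low values through its day 12 and post-partum means, so its day 19 minus day 12 difference of -0.61 ± 0.24 (limma adjusted p = 0.675) compares a group above that filter with one below it. Acad11 read 9.75 and 9.34 at day 12, against 9.54 and 9.45 in diestrus, so its groups overlapped.

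The mitochondrial trifunctional protein carries out the later steps for long chains, with its alpha subunit encoded by Hadha and its beta subunit by Hadhb. In the mouse genome both genes start from the same stretch of DNA and are read away from each other, and the sequence between their annotated starts is shown because this pair shared a direction at day 12 but not post-partum. In GRCm38.p6 as annotated by RefSeq, Hadhb lies on the plus strand and Hadha on the minus strand, and the first bases, in capitals, are 273 bases apart at chr5:30154980-30155253, plus strand, 60.2% G and C.
Hadha-Hadhb: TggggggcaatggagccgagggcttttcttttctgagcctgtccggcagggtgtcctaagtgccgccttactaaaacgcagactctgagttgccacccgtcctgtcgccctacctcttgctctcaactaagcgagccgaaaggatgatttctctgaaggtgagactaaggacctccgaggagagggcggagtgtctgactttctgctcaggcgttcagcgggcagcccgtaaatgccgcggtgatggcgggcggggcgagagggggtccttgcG
Windows of divergent genes, 250 bases before to 50 after each start, were also searched for overlap. A pair was counted only where the plus strand window began inside the minus strand window. Such pairs held 1020 of 27025 genes in the promoter table, 3.77%. Divergent pairs with closer starts also overlap but were not counted, so these counts are lower bounds. By the same count, the 26 fatty acid genes in the table held 4, Hadha, Hadhb, Acad10 and Etfdh.

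Hadha read 12.11 and 12.07 in diestrus, 12.26 and 12.33 at day 12, 12.30 and 12.10 at day 19 and 12.05 and 11.99 post-partum. Hadhb read 6.10 and 5.93 in diestrus, 6.25 and 6.26 at day 12, 6.20 and 5.74 at day 19 and 6.37 and 6.12 post-partum. At day 12 both genes were above diestrus on both arrays, by 0.20 ± 0.13 for Hadha and 0.24 ± 0.18 for Hadhb. Post-partum Hadha was below diestrus on both arrays, with a difference of -0.07 ± 0.13, and Hadhb above on both, with a difference of 0.23 ± 0.18. None of these differences reached an unadjusted p of 0.05 in limma.

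The last 2 steps for shorter chains are served by Hadh, a hydroxyacyl-CoA dehydrogenase, and Acaa2, the ketoacyl-CoA thiolase of the matrix. Hadh read 12.50 and 12.45 in diestrus, 12.66 and 12.56 at day 12, 12.52 and 12.29 at day 19 and 12.06 and 12.39 post-partum. Its post-partum pair was below the diestrus and day 12 pairs, with a post-partum minus day 12 difference of -0.39 ± 0.16 (limma adjusted p = 0.615). Acaa2 read 12.10 and 12.08 in diestrus, 12.29 and 12.32 at day 12, 12.29 and 12.00 at day 19 and 11.99 and 12.04 post-partum. The same order held for Acaa2, with day 12 above and post-partum below diestrus on both arrays, with differences of 0.21 ± 0.14 and -0.08 ± 0.14.

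Eci1, Eci2, Ech1 and Decr1 prepare unsaturated chains for the cycle, and Acot13, a thioesterase, was grouped with them. All 5 had both day 12 arrays above both diestrus arrays. Eci2, an enoyl-CoA isomerase, was the only one of the 31 genes with an unadjusted p under 0.05 at day 12. It read 8.55 and 8.47 in diestrus, 8.90 and 8.91 at day 12, 8.93 and 8.51 at day 19 and 8.83 and 8.70 post-partum. The day 12 minus diestrus difference was 0.39 ± 0.16, a fold of 1.31 (limma adjusted p = 1.0). Eci2 also stayed above diestrus on both post-partum arrays, by 0.25 ± 0.16.

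Eci1, another enoyl-CoA isomerase, was highest at day 19, where most genes were not. It read 11.04 and 10.94 in diestrus, 11.24 and 11.12 at day 12, 11.34 and 11.17 at day 19 and 10.90 and 10.95 post-partum. Its day 19 minus diestrus difference was 0.26 ± 0.13 (limma adjusted p = 0.657) and its post-partum minus day 19 difference -0.33 ± 0.13 (limma adjusted p = 0.589). Decr1, the dienoyl-CoA reductase, read 9.76 and 9.81 in diestrus, 10.17 and 9.87 at day 12, 10.14 and 10.01 at day 19 and 9.88 and 9.91 post-partum. All 6 of its arrays outside diestrus lay above both diestrus arrays, by 0.29 ± 0.14 at day 19 (limma adjusted p = 0.657). Ech1, a dienoyl-CoA isomerase, lay within 12.16 to 12.40 and Acot13, which splits acyl-CoA, within 10.71 to 11.16.

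Electron transfer flavoprotein takes electrons from the acyl-CoA dehydrogenases, and its dehydrogenase passes them to ubiquinone. Etfa, one subunit, read 10.91 and 10.91 in diestrus, 11.07 and 11.01 at day 12, 10.97 and 10.40 at day 19 and 11.01 and 10.73 post-partum. Etfb, the other subunit, read 11.99 and 12.01 in diestrus, 12.10 and 12.10 at day 12, 12.05 and 11.78 at day 19 and 11.58 and 11.97 post-partum. Etfdh, the dehydrogenase, read 11.34 and 11.51 in diestrus, 11.66 and 11.67 at day 12, 11.70 and 11.29 at day 19 and 11.43 and 11.38 post-partum. All 3 were above diestrus on both day 12 arrays, by 0.10 to 0.24, and all 3 had day 19 replicate 2 below replicate 1.

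The 4 peroxisomal genes did not share a direction post-partum. Crot, the carnitine octanoyltransferase that readies shortened chains for export to mitochondria, read 8.60 and 8.75 in diestrus, 8.99 and 8.71 at day 12, 8.66 and 8.33 at day 19 and 8.10 and 8.40 post-partum. Its post-partum arrays were both below diestrus and day 12, with differences of -0.43 ± 0.18 (limma adjusted p = 0.722) and -0.60 ± 0.18 (limma adjusted p = 0.615). Acaa1a, the peroxisomal thiolase, read 6.02 and 5.15 in diestrus, 6.28 and 6.05 at day 12, 5.98 and 6.07 at day 19 and 6.60 and 6.20 post-partum. Its post-partum minus diestrus difference was 0.82 ± 0.28, a fold of 1.76 (limma adjusted p = 0.722), and its 2 diestrus arrays differed by 0.86 from each other. Leaving out 1 array in turn gave 0.39 to 1.25.

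Ehhadh encodes the bifunctional enzyme of the inducible peroxisomal pathway. It read 6.38 and 6.10 in diestrus, 6.58 and 6.58 at day 12, 6.18 and 5.70 at day 19 and 6.42 and 6.23 post-partum. The day 12 pair was above all others, and the day 19 minus day 12 difference was -0.64 ± 0.19, a fold of 0.642 (limma adjusted p = 0.675). Hsd17b4, the other bifunctional enzyme, lay within 8.41 to 8.67 on 7 arrays and at 7.91 on day 19 replicate 2.

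**Figure D4:**
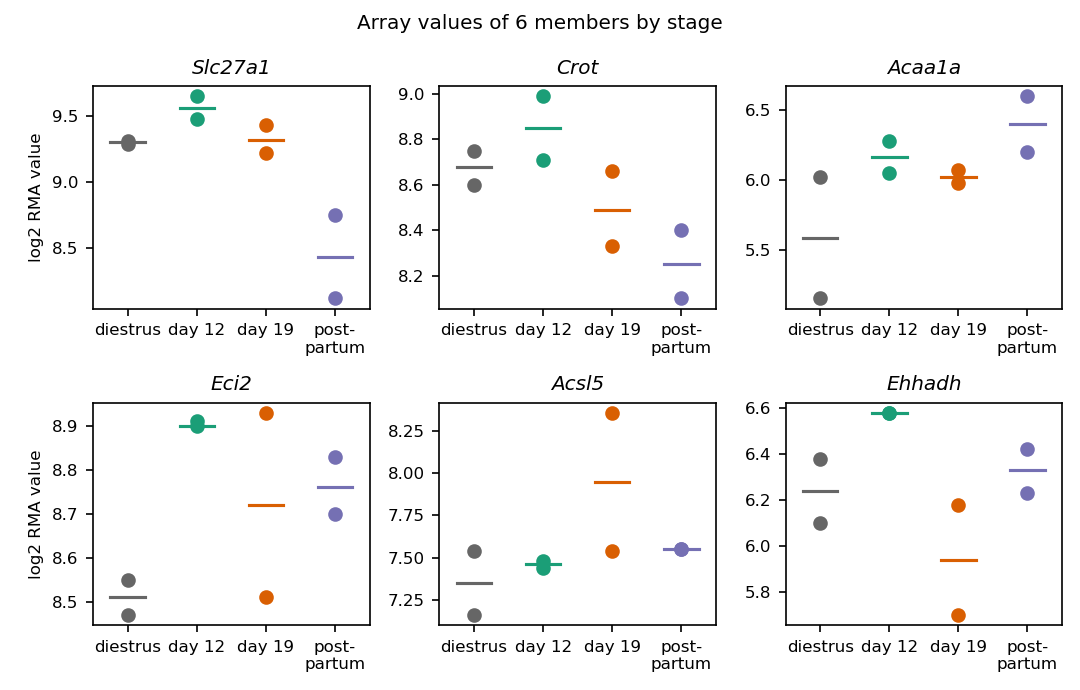
Points give the log2 values of 6 genes on the 2 arrays of each stage, from diestrus to post-partum, and lines the stage means, with each panel on its own axis that does not start at 0. Slc27a1 and Crot have their lowest means post-partum, Acaa1a its highest mean there, Eci2 and Ehhadh their highest means at day 12, and Acsl5 has 1 high array at day 19.

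Ppara read 7.98 and 7.60 in diestrus, 7.85 and 7.90 at day 12, 7.88 and 7.32 at day 19 and 7.41 and 7.82 post-partum. Its day 12 pair lay within the range of the diestrus pair, with a day 12 minus diestrus difference of 0.09 ± 0.23. PPAR-alpha binds DNA with a partner receptor at 2 copies of a hexamer, AGGTCA, placed 1 base apart. The RefSeq promoter table of GRCm38.p6 held 29 windows for 26 of the 33 genes, each from 250 bases before to 50 after an annotated start. The pair of hexamers, both strands searched and every letter but the spacer required, was in 0 of the 29 windows and in 0.0396% of all 32851 windows. The single hexamer, which the pair contains, was in 3 of 29, 10.3%, against 16.3% of all windows and 12.7% of those of genes tested. The extended motif TCAAGGTCA, which also contains it, was in 0 of 29 and 0.423% of all windows.

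The 3 windows with a hexamer are shown, each as 60 bases on the minus strand, which is the strand of its gene, with the hexamer or its reverse complement in capitals. The Acadvl stretch is chr11:70015483-70015542, the Cd36 stretch chr5:17836087-17836146 and the Acadm stretch chr3:153944834-153944893, and the hexamers begin 87, 228 and 249 bases before the annotated starts.
Acadvl: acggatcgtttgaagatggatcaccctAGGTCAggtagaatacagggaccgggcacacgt
Cd36: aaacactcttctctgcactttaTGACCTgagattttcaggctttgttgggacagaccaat
Acadm: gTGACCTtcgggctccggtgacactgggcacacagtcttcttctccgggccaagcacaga
All 3 genes had both day 12 arrays above both diestrus arrays, as 22 of the 31 did. A match describes the letters only, and its absence says nothing of binding outside the window.

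Another 78 genes of fatty acid handling were listed, of which 68 were tested, to set the enzymes beside the rest of the pathway. This list too was chosen with earlier results of these data known, so its shares are a description only. At day 12, 53 were higher and 15 lower than in diestrus by mean, with a median of 0.10, and unadjusted p was under 0.05 for 6 that were higher and 1 that was lower, 10.3% against 2.31% of all genes. At day 19, 19 were higher and 49 lower, with a median of -0.10, and post-partum 27 were higher and 41 lower, with a median of -0.04. With an unadjusted p under 0.05 there were 3 higher and 2 lower genes at day 19, 7.35% against 7.29% of all genes, and 2 higher and 4 lower post-partum, 8.82% against 6.62%. None had an adjusted p under 0.05. The 2 day 19 arrays again split, with 15 of the 68 above their diestrus mean on replicate 2 and 45 on replicate 1.

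Angptl4, whose product inhibits lipoprotein lipase, differed most. It read 5.23 and 5.21 in diestrus, 6.30 and 5.87 at day 12, 6.49 and 6.20 at day 19 and 5.54 and 5.56 post-partum. All 4 pregnant arrays lay above all others, by 0.86 ± 0.18 at day 12 (limma adjusted p = 0.98) and 1.12 ± 0.18 at day 19 (limma adjusted p = 0.503) over diestrus.

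Plin5, a coat protein of lipid droplets in oxidative tissue, read 8.88 and 8.56 at day 12, against 8.15 and 8.12 in diestrus, a difference of 0.58 ± 0.18 (limma adjusted p = 1.0). Nudt7, a peroxisomal hydrolase of coenzyme A, was 0.52 ± 0.21 higher at day 12 (limma adjusted p = 1.0). Acaca, the carboxylase that makes malonyl-CoA, read 6.03 and 6.23 at day 12 and 6.21 and 6.06 at day 19, against 6.52 and 6.45 in diestrus, with differences of -0.36 ± 0.14 and -0.35 ± 0.14 (limma adjusted p = 1.0 and 0.657). The triglyceride lipases Pnpla2 and Lipe were higher at day 19, by 0.43 ± 0.14 and 0.49 ± 0.19 (limma adjusted p = 0.657 for both). Pnpla2 read 10.65 and 10.77 at day 19, against 10.31 and 10.25 in diestrus, so its 2 day 19 arrays were close to each other where most fatty acid genes split. Lipe read 6.87 on replicate 1 and 7.41 on replicate 2 at day 19, against 6.67 and 6.64 in diestrus. Abcd2, a peroxisomal fatty acid transporter, was lower at day 19, with a difference of -0.79 ± 0.31 and readings of 5.81 on replicate 2 and 6.85 on replicate 1.

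Post-partum, Gpihbp1, which carries lipoprotein lipase to the capillary lumen, read 8.94 and 9.04, against 8.53 and 8.67 in diestrus, a difference of 0.39 ± 0.16 (limma adjusted p = 0.722). Lpin1, a phosphatidate phosphatase, was 0.40 ± 0.17 higher (limma adjusted p = 0.722). Acss1, a mitochondrial acetyl-CoA synthetase, Vldlr, a receptor for triglyceride-rich lipoproteins, and Acot1, an acyl-CoA thioesterase, were lower, with differences of -0.57 ± 0.23, -0.45 ± 0.18 and -0.42 ± 0.17 (limma adjusted p = 0.722 for all). Acot1 read 4.66 and 4.97 post-partum, against 5.40 and 5.08 in diestrus, so its post-partum arrays lay below the filter on low values, 5.19. Acss1 read 10.22 on post-partum replicate 2 and 10.89 on replicate 4, and, as for Slc27a1, replicate 2 was the lower array.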

How the data were processed

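Expression of the left ventricle was read on 8 arrays, 2 for each of 4 stages. The authors deposited log2 values for each probe set after RMA, and per the submitters' processing notes this was run in Affymetrix Expression Console. Its version and settings, like the genome build, were not given in the sources used here. RMA equalises the arrays, so a change shared by most genes, or in total RNA per cell, is not seen. Precision was limited by the number of arrays, with a typical SE of 0.17 for a log2 difference.

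Of 34365 probe sets, the platform annotation gave 1 gene symbol to 23521, several to 1814, and 9030 were unnamed here; the highest-mean probe set of a gene was used. A gene was tested if at least 1 group mean reached 5.19, the median of all values. limma 3.58.1 (lmFit, eBayes) under R 4.3.3 fitted 1 mean per stage over the 8 arrays, leaving 4 residual degrees of freedom, with two-sided tests, Benjamini-Hochberg adjustment over 13872 genes and a threshold of 0.05. The fit was tested on simulated arrays of equal spread with changes of 2 and 4 fold. Arrays of unequal spread, and shifts as small as those of the fatty acid genes, were not simulated. All genes of the list are named; of the other pathway genes, up to 3 in each direction per comparison with diestrus of unadjusted p under 0.05 are named, those with the largest differences. The genes and lists were chosen with earlier results of these data known. Same-numbered samples of 2 groups correlated at -0.059 to 0.22 in their deviations from the group means, and the numbers were not taken as pairing. Tried as alternatives were estimated array weights, eBayes with trend and robust settings, the 2 groups alone, the filter, 2 normalizations, the mean of probe sets, a replicate block, leaving out each array and, added after seeing the data, leaving out the 3 arrays high in atrial markers. Promoter sequences are RefSeq's, GRCm38.p6. Protein sequences were not used here.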

Additional observations from a re-analysis of the deposited data

How the results depend on the processing

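With 2 arrays a group, counts of calls depended on single arrays. Leaving out 1 array in turn, with a lone array assumed to vary like the other groups, gave 0 to 1 genes called for day 12 against diestrus, 0 to 1233 for day 19 against diestrus, 0 to 3 for post-partum against diestrus, 0 to 1312 for day 19 against day 12, 0 to 872 for post-partum against day 19 and 0 to 3 for post-partum against day 12. The counts of 1233, 1312 and 872 came without day 19 replicate 1, which leaves for day 19 the array high in macrophage and interferon genes. In limma, Acsl5 then had an adjusted p of 0.0173 for day 19 against diestrus. Acsl5, Ehhadh and Hsd17b4 then had 0.0244 to 0.049 for day 19 against day 12, and Acsl5 and Hsd17b4 0.0464 and 0.0488 for post-partum against day 19. The median over the fatty acid genes then ranged from 0.115 to 0.182 for day 12 against diestrus, -0.137 to 0.138 for day 19 against diestrus, -0.047 to 0.003 for post-partum against diestrus, -0.322 to -0.01 for day 19 against day 12, -0.176 to 0.107 for post-partum against day 19 and -0.249 to -0.15 for post-partum against day 12. The number higher of 31 ranged from 26 to 31, 8 to 24, 11 to 16, 1 to 12, 7 to 18 and 3 to 7 in the same order of comparisons. Array weights gave 1 call for day 12 against diestrus, and for post-partum against day 19 quantile normalization gave 1 and a trended and robust variance 1. For post-partum against day 12 the median was -0.219 with a stricter filter, -0.21 after quantile normalization, -0.152 with array medians set to 0 and -0.185 with the mean of all probe sets. Without the 3 arrays high in atrial markers, which leaves 1 array in 3 of the groups, calls were 327 for day 19 against diestrus, 282 for day 19 against day 12 and 346 for post-partum against day 19. There, 7 genes were higher for day 19 against diestrus and 1 for day 19 against day 12, and medians were -0.047 for post-partum against diestrus, 0.107 against day 19 and -0.249 against day 12.

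The replicate numbers were not taken as pairing. A fit with the replicate block leaves 1 residual degree of freedom, and day 19 replicate 1 and post-partum replicate 4 drop out of it. It called 18 genes for day 12 against diestrus, 2465 for day 19 against diestrus, 599 for post-partum against diestrus, 2635 for day 19 against day 12, 2442 for post-partum against day 19 and 799 for post-partum against day 12. Among the 31 fatty acid genes it called 4 for day 19 against diestrus, 1 for post-partum against diestrus, 6 for day 19 against day 12, 7 for post-partum against day 19 and 1 for post-partum against day 12, with smallest limma adjusted p of 0.00761, 0.0215, 0.0107, 0.0032 and 0.0115 in that order. With the block, 8 genes were higher for day 19 against diestrus and 1 for day 19 against day 12, and medians were 0.049 for post-partum against day 19 and -0.207 against day 12. The cause of these changes was not tested.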
